A study of Sus scrofa with 2 samples.

Results

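PROX1, FLT4 and LYVE1 are genes by which lymphatic endothelium is commonly recognised, and their transcripts were counted in single cells of pig skin. All 3 symbols were present among the 31908 genes of the deposited matrices, once each, so the set comprises 3 of 31908 genes. Cells came from the dorsal skin of young, healthy male farm pigs, dissociated with a whole skin dissociation kit and cleared of dead cells by sorting. There was 1 library of fresh cells with no treatment and 1 library of cryopreserved cells, frozen as single cells in 90% FBS + 10% DMSO and thawed before sorting. Freezing is written into the extraction text of both samples, while the fresh sample is marked as such by its title and treatment label. A numeric age and the strain were not given in the sources used here, nor whether the cells of both libraries had a common donor animal. There is no replicate of either condition, so differences carry no test and hold for these libraries alone.

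Transcripts were captured at their 3′ end in droplets and tagged with unique molecular identifiers (UMIs), so that copies made by PCR counted once. Within the maxima used by the study for genes, UMIs and mitochondrial share, 2775 fresh and 4223 cryopreserved cells were analysed, with a median of 11017 and 7945 UMIs per cell. A level is given as UMIs of the gene per 1000000 UMIs of a group of cells (CPM) with an exact 95% Poisson interval, and a share of cells carries an exact 95% binomial interval. Both cover counting error only. Where values are given in pairs, the fresh library comes before the cryopreserved library. No cell barcode within the lymphatic group was shared between the libraries, and 5 of the barcodes within the maxima were.

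Lymphatic vessels drain fluid and immune cells from the dermis. PROX1 is the homeobox transcription factor that sets and maintains the identity of lymphatic endothelium. FLT4 encodes VEGFR-3, the receptor tyrosine kinase through which VEGFC and VEGFD drive the growth of lymphatic vessels, and LYVE1 encodes a receptor for hyaluronan. LYVE1 is known from the initial, absorbing capillaries of the lymphatic tree and also from some tissue macrophages, so the 3 genes need not mark the same cells.

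Lymphatic-like cells were cluster 14 of 23, with 106 fresh and 135 cryopreserved cells. The 3 genes were left out of the features used for clustering and of the lists used for naming, so that none of them defined the group. The name rested on 8 other markers, CCL21, MMRN1, RELN, TBX1, NRP2, SEMA3D, SEMA3A and ITGA9, each detected in at least 10% of its cells and raised at least 2-fold over all remaining cells. Of 15 listed markers 14 were measured, and PDPN, TFF3, PKHD1L1, FOXC2, NTS and GPR182 did not meet this rule. Although left out of clustering and naming, PROX1 and FLT4 stood among the 10 genes with the largest fold in the cluster, and LYVE1 did not. The reference for comparison within the endothelium was cluster 3, with 202 fresh and 270 cryopreserved blood endothelial-like cells named by VWF, FLT1, PLVAP and 8 further markers. CD163/CD209 myeloid-like cells, a macrophage-like group, formed clusters 7 and 20 with 152 and 274 cells. The class name covers both clusters, but CD209 was among the raised markers of cluster 7 only. Cluster 20, with 14 and 44 cells, was named by CD163, C1QA, C1QB, C1QC, CSF1R, CD14 and MARCO.

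PROX1 (ENSSSCG00000015584) is a protein-coding gene on the minus strand of chromosome 9 at 129527704 to 129583693 of Sscrofa11.1, with 14 annotated coding transcripts of 4 to 6 exons. A gene of the opposite strand, LOC106507881, overlaps it, and how reads were counted by strand is not given in the sources used here. FLT4 (ENSSSCG00000014007) lies on the plus strand of chromosome 2 at 78076008 to 78115137, with 1 coding transcript of 30 exons, and LYVE1 (ENSSSCG00000029886) on the plus strand of chromosome 2 at 48937357 to 48954206, with 2 coding transcripts of 5 and 6 exons. Positions are from the RefSeq annotation of Sscrofa11.1. The 250 bases before the annotated gene starts of PROX1 and FLT4, which both had their highest level in lymphatic-like cells, are given. For PROX1 this is the outermost annotated start, and other starts of its 14 transcripts were not examined. Capitals mark, on either strand, GGAA (the core letters bound by ETS factors such as ERG and ETS1), ACAAT (letters bound by SOX factors such as SOX18), AGGTCA (a nuclear receptor half-site, as for NR2F2) and GATAA (GATA factors).
PROX1, chr9:129583694-129583943, minus strand: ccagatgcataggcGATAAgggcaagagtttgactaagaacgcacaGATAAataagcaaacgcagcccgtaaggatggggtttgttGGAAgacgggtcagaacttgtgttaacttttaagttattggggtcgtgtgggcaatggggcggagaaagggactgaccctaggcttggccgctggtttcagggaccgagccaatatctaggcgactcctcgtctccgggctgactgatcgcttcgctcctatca
FLT4, chr2:78075758-78076007, plus strand: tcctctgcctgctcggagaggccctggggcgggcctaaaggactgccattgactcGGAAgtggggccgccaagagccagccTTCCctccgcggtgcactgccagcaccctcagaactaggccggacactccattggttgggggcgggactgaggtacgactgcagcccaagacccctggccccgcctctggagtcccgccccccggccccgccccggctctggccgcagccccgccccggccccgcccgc
The window of PROX1 holds the ETS letters at 1 place and the GATA letters at 2 places. That of FLT4 holds the ETS letters at 2 places. The SOX letters and the nuclear receptor half-site were in neither window, and no matches overlapped. Among the windows of 19556 protein-coding genes, 92.7% hold the ETS letters, 20.6% the SOX letters, 12.2% the nuclear receptor half-site and 19.1% the GATA letters. Bases G and C made up 52.4% of the PROX1 window and 73.2% of the FLT4 window. These matches describe letters only.

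PROX1 was mainly a transcript of lymphatic-like cells. It had 729 UMIs in the 106 fresh cells, a level of 907 CPM (interval 842 to 975), and 546 UMIs in the 135 cryopreserved cells, a level of 912 CPM (interval 837 to 992). These UMIs were 87.6% of all PROX1 UMIs of the fresh library and 80.5% of those of the cryopreserved library. The next group in order was blood endothelial-like cells with 6.35 CPM (10 UMIs) and 15.3 CPM (19 UMIs), fresh and cryopreserved in turn. The ratio between these groups was 143 (interval 77.2 to 299) in the fresh library and 59.7 (interval 37.9 to 99.9) in the cryopreserved library. A single cryopreserved blood endothelial-like cell held 10 of the 19 UMIs, and its Scrublet doublet score lay at percentile 98.5 of its library. Without that cell the level was 7.27 CPM.

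Below these classes the order was hardly resolved. Fibroblast-like cells had 5.80 CPM (87 UMIs) and 4.48 CPM (70 UMIs), and in the fresh library their interval overlapped that of blood endothelial-like cells and lay above that of the next class, Langerhans or other dendritic-like cells. Not a single PROX1 UMI was found in CD163/CD209 myeloid-like cells (0 of 152 and 0 of 274 cells, which allows shares with a UMI of up to 1.97% and 1.09%, the shares of 3 cells) or in mast-like cells. In epidermal stem-like and differentiated keratinocyte-like cells the fresh library had 0 UMIs in 246 and 284 cells. The cryopreserved library had 20 and 17, held by 2 cells in each group. One of these cells carried 14 UMIs of PROX1 and also 2 of FLT4, with a doublet score at percentile 98.5. Both PROX1-bearing differentiated keratinocyte-like cells also carried MMRN1, a matrix protein of lymphatic endothelium, which none of the remaining cryopreserved cells of that class did. Neither was among the 6% of cells with the highest doublet scores, and the one with 9 PROX1 UMIs stood at percentile 74.2. The plot of the 3 genes over 10 classes shows this order.

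**Figure D1:**
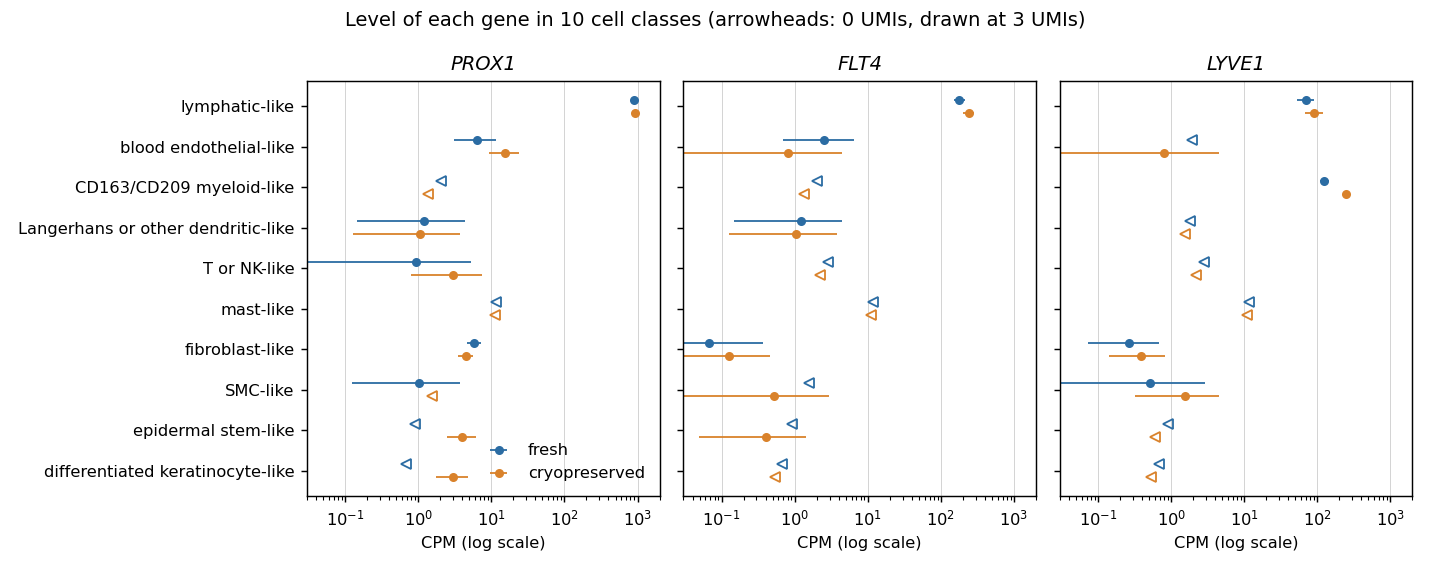
Level of PROX1, FLT4 and LYVE1 in 10 cell classes (CPM on a log scale; points with exact 95% Poisson intervals for the fresh and the cryopreserved library; open arrowheads are classes with 0 UMIs, drawn at the level of 3 UMIs). PROX1 and FLT4 stand apart in lymphatic-like cells, whereas LYVE1 is highest in CD163/CD209 myeloid-like cells and next in lymphatic-like cells.

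Cell by cell, PROX1 was detected in most lymphatic-like cells. A UMI was present in 90 of 106 fresh cells (84.9%, interval 76.6 to 91.1%) and 109 of 135 cryopreserved cells (80.7%, interval 73.1 to 87.0%). Counts per cell ran from 0 to 38 with a median of 4 in the fresh library and from 0 to 31 with a median of 2 in the cryopreserved library. The cryopreserved lymphatic-like cells were shallower, with a median of 3780 UMIs against 6740.5. After thinning of every cell to 2000 UMIs, for which 2 fresh and 18 cryopreserved cells were too shallow, the shares with PROX1 were 68.3% and 66.7%. In blood endothelial-like cells, at median depths of 6523 and 3958 UMIs, the unthinned shares were 3.96% and 2.96%. Lymphatic-like cells with no PROX1 UMI numbered 16 and 26, and 5 and 8 of them had FLT4.

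FLT4 was also highest in lymphatic-like cells, and unlike PROX1 it was nearly absent from fibroblast-like cells. Its level in lymphatic-like cells was 179 CPM (144 UMIs, interval 151 to 211) in the fresh and 239 CPM (143 UMIs, interval 201 to 281) in the cryopreserved library. These were 95.4% and 94.1% of all FLT4 UMIs. Blood endothelial-like cells held 4 and 1 UMIs, a ratio of 70.5 (interval 26.9 to 262) in the fresh library and of 297 with the wide interval of 52.5 to 11812 in the cryopreserved library. CD163/CD209 myeloid-like, T or NK-like, mast-like and differentiated keratinocyte-like cells had 0 FLT4 UMIs in either library. Fibroblast-like cells, the largest class with 2616 cells, had 3 in all (0.067 and 0.13 CPM), whereas they held 10.5% and 10.3% of the PROX1 UMIs. In the cryopreserved library Langerhans or other dendritic-like cells stood second with 2 FLT4 UMIs (1.04 CPM), above blood endothelial-like cells with 0.80 CPM, and these intervals overlapped.

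FLT4 was detected in 57 of the fresh lymphatic-like cells (53.8%, interval 43.8 to 63.5%) and in 64 of the cryopreserved (47.4%, interval 38.8 to 56.2%). After thinning, 30.8% of the cells of each library had it. The median fresh cell had 1 UMI and the median cryopreserved cell 0, and the highest counts were 8 and 9. At the depth as sequenced, the share of cells with FLT4 was 57.8% among cells with PROX1 against 31.2% among those without in the fresh library, and 51.4% against 30.8% in the cryopreserved library. The cells with PROX1 were also the deeper ones, with medians of 6888.5 against 6204.5 and 4181 against 2954 UMIs. With every cell thinned to 2000 UMIs the shares were 29.6% (21 of 71 cells) against 33.3% (11 of 33) and 30.8% (24 of 78) against 30.8% (12 of 39). In this random draw FLT4 was no more frequent in cells with PROX1. Both genes were then detected in fewer cells, and cells without a PROX1 UMI numbered 33 and 39, against 16 and 26 as sequenced. The part of depth in the unthinned difference was not tested.

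**Figure D2:**
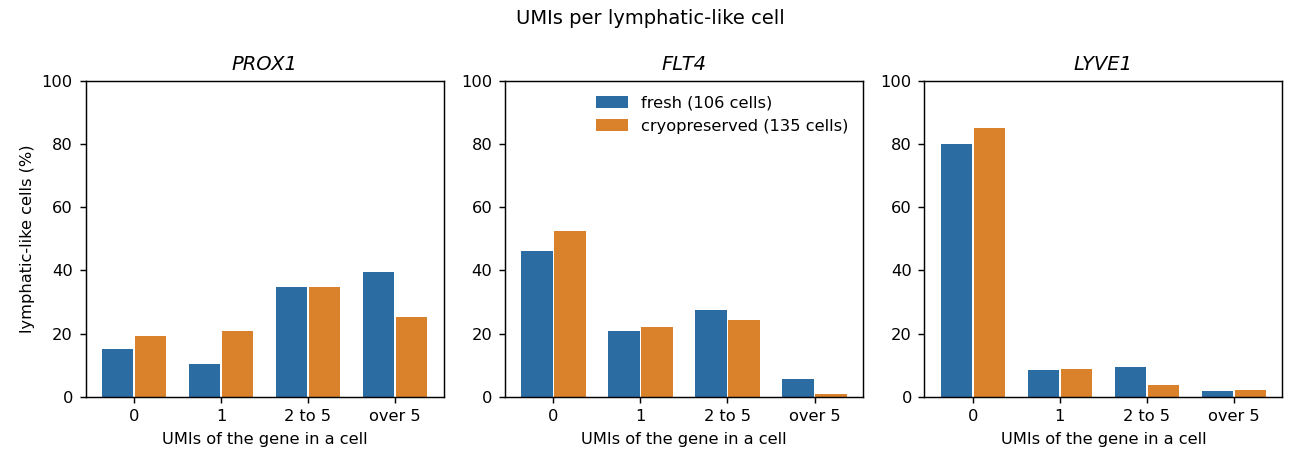
UMIs of PROX1, FLT4 and LYVE1 per lymphatic-like cell, as the percentage of the 106 fresh and 135 cryopreserved cells with 0, 1, 2 to 5 or over 5 UMIs. For PROX1, 42 fresh and 34 cryopreserved cells had over 5 UMIs, and for LYVE1, 85 and 115 cells had none.

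LYVE1 was distributed differently. Its highest level was in CD163/CD209 myeloid-like cells, with 125 CPM (184 UMIs, interval 107 to 144) in the fresh and 244 CPM (546 UMIs, interval 224 to 265) in the cryopreserved library. Lymphatic-like cells came next with 69.6 CPM (56 UMIs, interval 52.6 to 90.4) and 90.2 CPM (54 UMIs, interval 67.7 to 118). The myeloid level exceeded the lymphatic level 1.79-fold (interval 1.32 to 2.46) in the fresh library and 2.70-fold (interval 2.04 to 3.65) in the cryopreserved library. Of all LYVE1 UMIs, 75.1% and 89.5% lay in the macrophage-like group and 22.9% and 8.85% in lymphatic-like cells. The size of the classes also enters these shares. The macrophage-like group had 1474059 UMIs in all against 804043 in the fresh library, and 2239408 against 598814 in the cryopreserved library.

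Blood endothelium was nearly empty of LYVE1, with 0 UMIs in 202 fresh cells and 1 UMI in 270 cryopreserved cells. Relative to it, LYVE1 in lymphatic-like cells was at least 36.5-fold higher in the fresh library, set against a floor of 3 UMIs in the class (the exact 95% interval of the ratio begins at 28.8), and 112-fold higher (interval 19.3 to 4511) in the cryopreserved library. No other class had more than 6 LYVE1 UMIs in a library. Langerhans or other dendritic-like, T or NK-like, mast-like and both keratinocyte classes had 0.

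All 3 genes were at least 2-fold higher in lymphatic-like than in blood endothelial-like cells in both libraries. Of 4830 genes that reached 50 UMIs in both groups together in each library, 597 were so, which is 12.4%. The groups were separated by clustering on other genes, so this share is a background and not a test.

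Within lymphatic-like cells LYVE1 was found in a minority. It was detected in 21 of 106 fresh cells (19.8%, interval 12.7 to 28.7%) and 20 of 135 cryopreserved cells (14.8%, interval 9.29 to 21.9%), and after thinning in 8.65% and 9.40%. The 5 cells with most UMIs held 50% and 59.3% of the total, against 21.0% and 19.4% for PROX1 and 24.3% and 20.3% for FLT4. The highest counts in a cell were 9 and 10.

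Lymphatic-like cells with and without a LYVE1 UMI were set side by side. Those with LYVE1 had more FLT4 in both libraries, 304 against 144 CPM (ratio 2.11, interval 1.48 to 2.99) in the fresh and 404 against 205 CPM (ratio 1.97, interval 1.34 to 2.86) in the cryopreserved library. PROX1 was 1.51-fold higher in them (interval 1.28 to 1.77) in the fresh library, and the ratio was 1.01 (interval 0.797 to 1.26) in the cryopreserved library. There, the cell with most LYVE1 (10 UMIs) was also the one with most PROX1. It held 31 of the 93 PROX1 UMIs of the cells with LYVE1, and the interval does not cover such dependence on 1 cell. SEMA3A, a secreted guidance molecule, was lower in the cells with LYVE1, at 61.8 against 193 CPM in the fresh and 19.7 against 360 CPM in the cryopreserved library. It had only 11 and 2 UMIs in the cells with LYVE1, with ratios of 0.320 (interval 0.156 to 0.593) and 0.0548 (interval 0.00659 to 0.201). TEK, the angiopoietin receptor, had 5 and 4 UMIs in the cells with LYVE1, with ratios of 0.293 (interval 0.0919 to 0.723) in the fresh and 0.393 (interval 0.103 to 1.07) in the cryopreserved library, where the interval includes 1. CCL21, the chemokine that draws dendritic cells into lymphatics, had ratios of 1.26 (interval 0.989 to 1.59) and 1.94 (interval 1.62 to 2.30). PDPN, which encodes podoplanin, had ratios in opposite directions, 1.43 and 0.636. Median depth was 7470 against 6636 UMIs in the fresh and 3973.5 against 3779 UMIs in the cryopreserved library. SEMA3A and CCL21 also served to name the cluster, and the cells were split on LYVE1 itself, so the ratios are descriptions. The genes named here are a part of those compared.

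Detection of the 3 genes in the same cell was counted next. A UMI of all 3 was found in 14 fresh lymphatic-like cells (13.2%, interval 7.41 to 21.2%) and 11 cryopreserved (8.15%, interval 4.14 to 14.1%). The most common patterns were PROX1 with FLT4 but no LYVE1, in 38 and 45 cells, and PROX1 alone, in 33 and 51 cells. LYVE1 was found without either of the other genes in 0 fresh and 3 cryopreserved lymphatic-like cells. None of the 3 was detected in 11 cells (10.4%) and 15 cells, with a median depth of 6415 and 2632 UMIs. LYVE1 was detected in 28.1% of lymphatic-like cells with FLT4 and 10.2% of those without it in the fresh library, and in 23.4% and 7.04% in the cryopreserved library. Thinned to 2000 UMIs per cell, these shares were 15.6% (5 of 32 cells) and 5.56% (4 of 72) in the fresh and 13.9% (5 of 36) and 7.41% (6 of 81) in the cryopreserved library, on few cells. With and without PROX1, the shares with LYVE1 were 21.1% and 12.5% in the fresh and 11.9% and 26.9% in the cryopreserved library. Thinned, they were 7.04% (5 of 71 cells) and 12.1% (4 of 33) in the fresh library. In the cryopreserved library they were then 7.69% (6 of 78) and 12.8% (5 of 39). At 2000 UMIs per cell, all 3 were seen together in 1 fresh cell (0.962%) and 3 cryopreserved cells (2.56%).

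Outside the lymphatic-like class the combination was not found. Among 2669 fresh and 4088 cryopreserved cells, 0 had a UMI of all 3 genes, and 1 cell in each library had 2 of them. A count of 0 allows 0.112% and 0.0734% of cells with such UMIs (3 cells of each group). It sets no limit on cells that express the combination, which was detected in a minority of lymphatic-like cells too. The 46 and 126 myeloid-like cells with LYVE1 had 0 UMIs of PROX1 and 0 of FLT4.

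**Figure D3:**
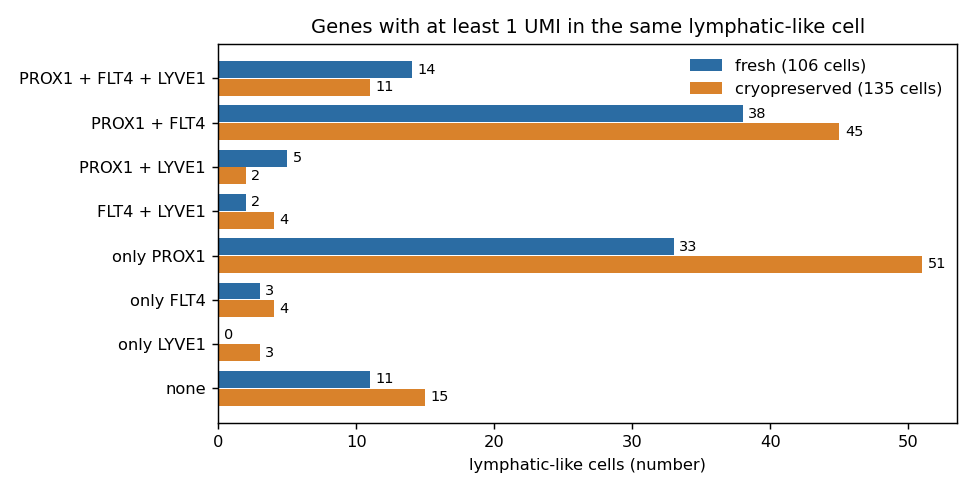
Number of lymphatic-like cells with each combination of PROX1, FLT4 and LYVE1 (at least 1 UMI each) among 106 fresh and 135 cryopreserved cells. PROX1 with FLT4 and PROX1 alone make up most cells, and all 3 genes were met in 14 and 11 cells.

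The LYVE1 of macrophage-like cells lay in cluster 7 alone. This cluster, led by CD209, CCL8 and C1QA, had LYVE1 in 46 of 138 fresh cells (33.3%, interval 25.5 to 41.9%) and 126 of 230 cryopreserved cells (54.8%, interval 48.1 to 61.3%). Cluster 20, led by ARG1 and MARCO, had 0 UMIs in 14 and 44 cells, which allows levels of up to 21.2 and 8.54 CPM at 3 UMIs. The level in cluster 7 was 138 CPM in the fresh and 289 CPM in the cryopreserved library. Counts reached 14 and 18 UMIs in a single cell.

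Within cluster 7, cells with a LYVE1 UMI differed from those without in other macrophage genes. CD209, a C-type lectin, was at 2585 against 499 CPM in the fresh library (ratio 5.19, interval 4.63 to 5.81) and at 4183 against 1016 CPM in the cryopreserved library (ratio 4.12, interval 3.79 to 4.48). FOLR2, a folate receptor of resident macrophages, was 3.69-fold and 3.39-fold higher. TIMD4, a phosphatidylserine receptor, was 2.996-fold (interval 1.78 to 5.17) and 3.56-fold (interval 2.20 to 6.10) higher. The complement gene C1QA followed with 1.77-fold and 1.67-fold. The scavenger receptors CD163 and MRC1 differed little, with ratios of 1.14 and 1.25 for CD163 and 1.19 and 1.18 for MRC1. The ratios of the transcription factor MAF were 0.878 (interval 0.707 to 1.09) and 0.563 (interval 0.455 to 0.697). CCR2, a receptor of recruited monocytes, had 1 UMI in the fresh cells with LYVE1 and 14 in those without, and 0 in the cryopreserved cells of the cluster. Cells with LYVE1 were deeper, with medians of 12099.5 against 7211.5 and 9894.5 against 5100 UMIs, and the part of depth was not tested.

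**Figure D4:**
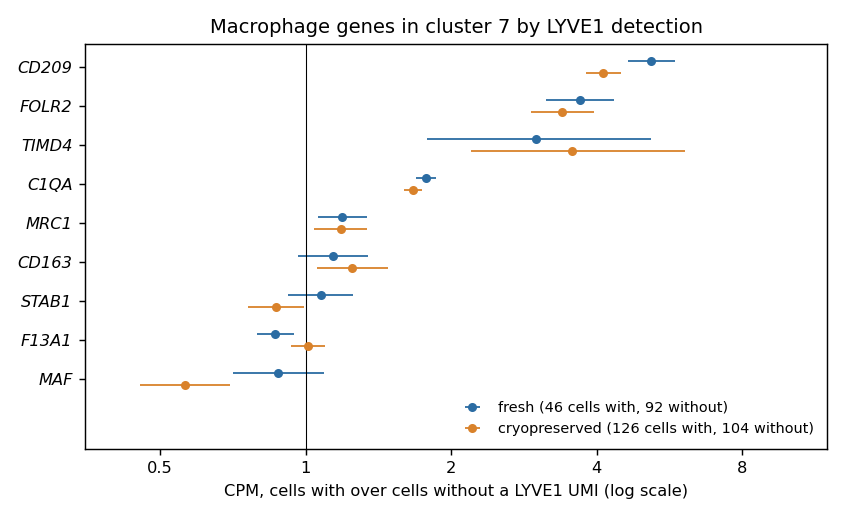
Macrophage genes in cluster 7 as the ratio of CPM in cells with a LYVE1 UMI over cells without (log scale, points with exact 95% intervals for counting error; 46 and 92 fresh cells, 126 and 104 cryopreserved cells). CD209, FOLR2 and TIMD4 lie at ratios of 2.996 to 5.19 in both libraries, while CD163, MRC1, STAB1 and F13A1 lie between 0.865 and 1.25.

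PROX1 in fibroblast-like cells was low but not evenly spread. A PROX1 UMI was found in 66 of 1138 fresh cells (5.80%, interval 4.51 to 7.32%) and 59 of 1478 cryopreserved cells (3.99%, interval 3.05 to 5.12%). Differentiated keratinocyte-like cells had it in 0 of 284 fresh cells, at a higher median depth (16255.5 against 12782.5 UMIs). In the cryopreserved library 2 of 541 of them (0.370%) held 17 UMIs. Their level there was 3.01 CPM (interval 1.75 to 4.81), against 4.48 CPM (interval 3.49 to 5.66) in fibroblast-like cells, and these intervals overlapped. Cluster 0, led by FCN2, MYOC and FGF10, had 15.7 CPM in the fresh library (35 of 307 cells) and 9.60 CPM in the cryopreserved library (32 of 430 cells). The other fibroblast-like clusters together had 2.99 and 2.80 CPM. The ratios were 5.26 (interval 3.36 to 8.31) and 3.42 (interval 2.08 to 5.65). This cluster was singled out after its values were seen. At a clustering resolution of 1.2 the cluster with most MYOC, led by FCN2, FGF10 and MYOC, had 217 and 290 cells and stayed unnamed, and its ratios over the fibroblast-like cells were 6.55 (interval 4.10 to 10.5) and 4.45 (interval 2.65 to 7.46). Over all barcodes the ratios were 2.71 and 3.67. Of the PROX1-bearing cells of cluster 0, 26 and 28 had exactly 1 UMI, 0 had MMRN1 and 0 had FLT4 or LYVE1. CCL21 was found in 17.1% and 6.25% of them and in 10.7% and 5.53% of the other cells of the cluster. RELN was found in 2.86% and 0% of them and in 0% and 0.251% of the other cells. The 1 fresh cell with both PROX1 and RELN was the one with most PROX1, 7 UMIs.

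The genes that act with PROX1 in lymphatic identity were read from a list of 12 transcription factors, of which 11 were measured and 9 had enough UMIs to be compared. Of these, 5 were at least 2-fold higher in lymphatic-like than in blood endothelial-like cells in both libraries, and 1 was at least 2-fold lower, against 12.4% and 12.8% of all genes. The median log2 ratio of the list, taken on log2(CPM + 1) over all its measured members and both libraries, was 1.25, and that of all genes compared was 0.17. SOX18, which with NR2F2 switches on PROX1 in development, was at 494 and 658 CPM in lymphatic-like cells and 168 and 199 CPM in blood endothelial-like cells. NR2F2 was at 404 and 486 against 100.4 and 80.4 CPM. NFATC1, a partner of PROX1 and FOXC2 in lymphatic valves, was at 1061 and 1010.3 against 121 and 131 CPM. TBX1, a regulator of FLT4 in lymphatic endothelium, was at 213 and 267 against 1.91 and 4.02 CPM. HHEX, which acts upstream of PROX1, was at 38.6 and 51.8 against 16.5 and 20.1 CPM. GATA2 was at 153 and 197 against 78.1 and 105 CPM, a difference below 2-fold. ERG, an ETS factor of endothelium, was the lower one, at 292 and 239 against 1024 and 863 CPM. FOXC2, a factor of lymphatic valves, had 0 and 1 UMIs in lymphatic-like cells. TBX1 also served to name the cluster.

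The other VEGF receptors were not selective for lymphatic-like cells. Among 4 VEGF receptors and coreceptors, 2 were at least 2-fold lower in lymphatic-like cells in both libraries, none was at least 2-fold higher, against 12.8% and 12.4% of all genes, and the median log2 ratio was -2.62. FLT1 (VEGFR-1) was at 16.2 and 8.35 CPM in lymphatic-like cells and 971 and 854 CPM in blood endothelial-like cells. KDR (VEGFR-2), which pairs with FLT4, was at 209 and 149 against 283 and 265 CPM. The coreceptor NRP1 was at 9.95 and 6.68 against 232 and 234 CPM. NRP2, the coreceptor for VEGFC, was at 529 and 411 against 268 and 285 CPM, and at 706 and 563 CPM in CD163/CD209 myeloid-like cells. FLT1 also served to name the blood endothelial-like cluster and NRP2 the lymphatic-like cluster, so the counts of this list are descriptions.

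Transcripts of the ligands of FLT4 were found mainly in other cells. VEGFC was highest in blood endothelial-like cells with 154 and 158 CPM, followed by fibroblast-like cells with 42.2 and 30.1 CPM, and had 1 and 0 UMIs in lymphatic-like cells. It was the 1 of 2 comparable ligands that was at least 2-fold lower in lymphatic-like than in blood endothelial-like cells, against 12.8% of all genes. The median log2 ratio over the 4 measured ligands was 0.15. VEGFD was found mainly in fibroblast-like cells (23.4 and 24.0 CPM) and had 0 UMIs in lymphatic-like cells. Of the genes that process VEGFC, CCBE1, a secreted cofactor, was highest in fibroblast-like cells at 183 and 91.3 CPM. ADAMTS3, the protease that cleaves VEGFC, was at 97.0 and 63.5 CPM in lymphatic-like and 41.5 and 27.6 CPM in fibroblast-like cells, with 0 and 1 UMIs in blood endothelial-like cells. FURIN was at 60.9 and 63.5 CPM in lymphatic-like cells, and ADAMTS14 had 0 UMIs in them. Only 1 of the 4 processing genes had enough UMIs for the comparison, and it was not called.

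For the ligand of LYVE1, hyaluronan, 10 of 11 listed genes were measured and 4 were compared, with 2 at least 2-fold higher in lymphatic-like cells and none lower, against 12.4% and 12.8% of all genes. The median log2 ratio of 0.49 was taken over all 10 measured genes, also those with too few UMIs to be compared. The synthases HAS1 and HAS2 were at 139 and 179 CPM and at 129 and 112 CPM in fibroblast-like cells, and had 2 to 5 UMIs in lymphatic-like cells. CEMIP, which takes part in hyaluronan breakdown, was at 287 and 154 CPM in lymphatic-like against 5.08 and 2.41 CPM in blood endothelial-like cells. STAB1, a scavenger receptor, was at 127 and 234 CPM in lymphatic-like cells, 12.1 and 16.1 CPM in blood endothelial-like cells and 457 and 445 CPM in CD163/CD209 myeloid-like cells, so that both groups with LYVE1 also had STAB1. CD44, the common hyaluronan receptor, was low in lymphatic-like cells at 18.7 and 21.7 CPM and stood at 1324 and 1095 CPM in CD163/CD209 myeloid-like cells.

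**Figure D5:**
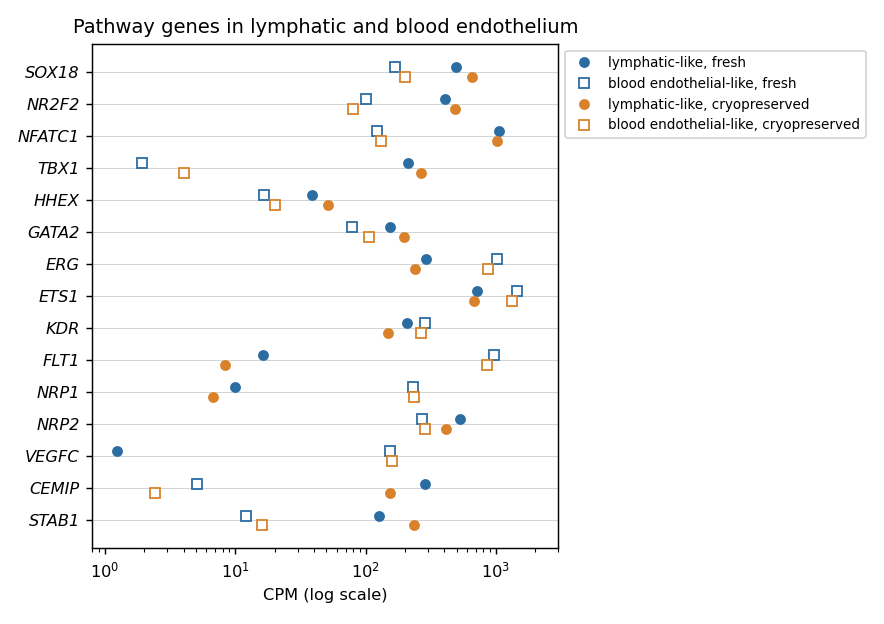
Transcription factors, VEGF pathway genes and hyaluronan genes in lymphatic-like cells (filled circles) and blood endothelial-like cells (open squares) of both libraries, in CPM on a log scale. SOX18, NR2F2, NFATC1, TBX1 and CEMIP lie higher in lymphatic-like cells and ERG, FLT1, NRP1 and VEGFC higher in blood endothelial-like cells; VEGFC had 0 UMIs in cryopreserved lymphatic-like cells and has no circle there.

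Surface and junction genes often used with the 3 genes were read from a further list. Of 13 listed, 10 were compared, 3 were at least 2-fold higher in lymphatic-like than in blood endothelial-like cells (PDPN, CCL21 and ANGPT2) and none was lower, against 12.4% and 12.8% of all genes. The median log2 ratio over the 13 listed genes was 0.40. CCL21 and ITGA9 of this list also served to name the lymphatic-like cluster, and PDPN was on the list used for naming. PDPN was at 935 and 611 CPM in lymphatic-like cells and at 1084 and 869 CPM in fibroblast-like cells, in contrast to PROX1 and FLT4. CCL21 was at 458 and 1092 CPM in lymphatic-like cells. CLDN5, a tight junction gene of all endothelium, was at 515 and 566 CPM in lymphatic-like and 420 and 431 CPM in blood endothelial-like cells. Of the genes on the resident macrophage list, MRC1, which lymphatic endothelium shares with macrophages, was at 80.8 and 88.5 CPM in lymphatic-like cells against 1.91 and 1.61 CPM in blood endothelial-like cells.

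The genes most like each member were taken over 20 sums (10 classes in each library) among 11692 genes with at least 200 UMIs, by Pearson's r of log2(CPM + 1). The sums of a library share its depth, and r is a description only. PROX1 was closest to SCN3A (r = 0.97), CLDN11 (0.95), DLGAP1 (0.94), FLT4 (0.93) and CLVS1 (0.92). FLT4 was closest to SCN3A (0.96), MDGA2 (0.96), MMRN1 (0.95), CLDN11 (0.95) and GPM6A (0.93). Both lists were thus led by genes of lymphatic-like cells, among them the sodium channel gene SCN3A at 197 and 164 CPM. LYVE1 was closest to STAB1 (0.90), AP2A2 (0.89), ARG1 (0.89), MSR1 (0.85) and CALML4 (0.85), and its r was 0.42 with PROX1 and 0.53 with FLT4. ARG1 was among the leading genes of cluster 20, in which LYVE1 was at 0.

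Levels in the cryopreserved library were then compared with the fresh library within each class, after TMM scaling of the class sums. In lymphatic-like cells the ratio, cryopreserved over fresh, was 0.985 (interval 0.880 to 1.10) for PROX1, 1.31 (interval 1.03 to 1.66) for FLT4 and 1.27 (interval 0.856 to 1.88) for LYVE1. None reached 2-fold, and 207 of 4339 genes (4.77%) did so in this class in either direction. In lymphatic-like barcodes outside the maxima FLT4 was lower in the cryopreserved library, at 194 and 62.4 CPM (47 and 3 UMIs). PROX1 was at 717 and 270 CPM there (174 and 13 UMIs), and LYVE1 at 41.2 and 62.4 CPM (10 and 3 UMIs). PROX1 in fibroblast-like cells had a ratio of 0.807 (interval 0.580 to 1.12).

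LYVE1 in CD163/CD209 myeloid-like cells was 2.12-fold higher in the cryopreserved library (interval 1.79 to 2.52), where 3.71% of 6597 genes were at least 2-fold apart in either direction. The share of cells with LYVE1 was 30.3% and 46.0%, at median depths of 8279 and 7588.5 UMIs, and 15.8% and 26.2% after thinning. The mean over cells of each cell's own level gave a ratio on the log2 scale of 0.71 in place of 1.08, and all barcodes gave 0.82, both below 2-fold. In myeloid-like barcodes outside the maxima the order of the libraries was the opposite. LYVE1 was at 260 CPM in the fresh (79 UMIs in 6 barcodes) and 140 CPM in the cryopreserved library (42 UMIs in 10 barcodes). Genes that went with LYVE1 inside cluster 7 were also higher in the cryopreserved class, with ratios of 2.37 for CD209 (interval 2.2475 to 2.4998), 1.61 for TIMD4 (interval 1.21 to 2.17) and 1.53 for FOLR2 (interval 1.41 to 1.68). The rise was not particular to these genes. MARCO, a leading gene of cluster 20, had a ratio of 2.32 (interval 1.46 to 3.79), and C1QB one of 1.56. MRC1 (0.736), CD163 (0.843), MAF (0.701), MSR1 (0.728), F13A1 (0.835) and CCR2 (0.107, on 20 and 3 UMIs) were lower. A larger share of cells of this kind and a higher level per cell cannot be told apart from these sums.

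Over whole libraries the ratios were 0.736 for PROX1 (interval 0.664 to 0.816), 0.909 for FLT4 (interval 0.721 to 1.15) and 2.25 for LYVE1 (interval 1.94 to 2.62). At least 2-fold differences were found for 409 of 14443 genes (2.83%). Lymphatic-like cells made up 106 of 2775 fresh and 135 of 4223 cryopreserved cells with a median of 6740.5 and 3780 UMIs, and both quantities enter the library sums of PROX1 and FLT4. Over all barcodes the log2 ratio of PROX1 was -0.27 in place of -0.44. The fresh barcodes outside the maxima held 39.4% of the UMIs of their library and 25.0% of its PROX1 UMIs, a level of 13.2 CPM against 25.8 CPM within the maxima, and the cryopreserved barcodes of this kind had 8.50 against 18.5 CPM.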

How the data were processed

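Single-cell RNA-seq of pig skin was made with the 10x Genomics 3′ kit V3, in 1 fresh and 1 cryopreserved library. The authors mapped reads to Sscrofa11.1 with its Ensembl annotation (Cell Ranger 4.0.0, STAR 2.5.1b, per the study's methods and the submitters' processing notes) and deposited raw UMI counts per gene and barcode, without normalization. The matrices sum to 53271738 and 42217632 UMIs, of which 32274985 and 36687009 lie in the cells analysed.

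Cells with at most 4500 genes, 30000 UMIs and 10% mitochondrial UMIs (13 protein-coding genes) were kept. Both libraries were integrated and clustered with Seurat 5.3.0 (2000 features, 30 dimensions, resolution 0.8). A cluster was named by the marker list with the highest mean fold, if at least 3 of its markers and 1 in 3 of those measured were found in 10% of cells and raised 2-fold. The condition of 1 in 3 was set after first results, and 20 of 23 clusters fell into 10 classes. Scrublet marked 3 fresh cells (0.108%, too few to have worked) and 35 cryopreserved cells (0.829%). None was removed. UMIs were summed per class and library, and libraries were scaled with edgeR 4.0.16 (TMM). Named genes were the 3 genes, genes of the pathway lists, and the 5 most similar genes of each. The genes and lists were chosen with earlier results of these data known. Genes of each list absent from the matrices were not analysed here. The arithmetic of the ratios and their intervals was tested on simulated Poisson counts of class sums. These hold no spread between cells, so the test does not bear on that spread. Alternatives included DESeq2 1.42.0 size factors, resolutions of 0.4 and 1.2, no integration, wider cell filters and thinning to 2000 UMIs. The window before LYVE1 is not reported here.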

Additional observations from a re-analysis of the deposited data

Results flagged for a closer look

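Barcodes outside the maxima for genes, UMIs and mitochondrial share entered none of the main comparisons, only the alternatives with wider cell filters, and they held UMIs of all 3 genes. Their part of all UMIs was 39.4% (fresh) and 13.1% (cryopreserved). In the 1604 fresh barcodes outside the maxima PROX1 had 277 UMIs, FLT4 65 and LYVE1 108, which were 25.0%, 30.1% and 30.6% of each gene's UMIs in the fresh library. In the 637 cryopreserved barcodes PROX1 had 47 UMIs, FLT4 4 and LYVE1 50, or 6.48%, 2.56% and 7.58%. A single fresh barcode held 54 of the PROX1 UMIs. When all barcodes were clustered, 17 of the fresh ones fell into the lymphatic-like class with 174 PROX1 and 47 FLT4 UMIs, and 24 into the CD163/CD209 myeloid-like class with 79 LYVE1 UMIs and 0 of PROX1 and FLT4. These 79 UMIs lay in 6 barcodes, at a level of 260 CPM. In the cryopreserved library 32 barcodes outside the maxima fell into the myeloid-like class, with 42 LYVE1 UMIs in 10 of them, or 140 CPM. The lymphatic-like class took 11 such cryopreserved barcodes, with 13 PROX1, 3 FLT4 and 3 LYVE1 UMIs. A further 64 PROX1 UMIs lay in 15 of 323 such fresh barcodes in the fibroblast-like class.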

How the results depend on the processing

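Of 273 values recomputed under an alternative, 254 stayed within the counting interval of the main value or, for counts, within 1.5 times it, 19 did not, and 0 called values changed sign. Thinning to 2000 UMIs gave shares with all 3 genes of 0.962% and 2.56% and with PROX1 of 68.3% and 66.7%, fresh and cryopreserved. LYVE1 in CD163/CD209 myeloid-like cells was 107 CPM in the fresh library when the libraries were merged without integration, and in the cryopreserved library 197 CPM as a mean over cells and 289 CPM in cluster 7 alone. The log2 ratio of PROX1 between lymphatic-like and blood endothelial-like cells of the cryopreserved library, 5.90, was 6.87 without the 6% of cells with the highest Scrublet score and 6.92 without the cell with most UMIs in each group. The log2 ratio of LYVE1, cryopreserved over fresh, in CD163/CD209 myeloid-like cells was 0.82 over all barcodes and 0.71 as a mean over cells. In whole libraries that of PROX1 was -0.27 over all barcodes and -0.14 as a mean over cells, that of FLT4 was 0.31 as a mean over cells in place of -0.14, whose interval includes 0, and that of LYVE1 was 0.73 as a mean over cells. The log2 ratio of PROX1 in the MYOC-led cluster of the fresh library was 1.44 over all barcodes in place of 2.39. With no minimum beyond 1 UMI, the genes at least 2-fold apart between libraries numbered 5409 in lymphatic-like cells, 5176 in CD163/CD209 myeloid-like cells and 4676 in all cells, in place of 207, 245 and 409, with many more genes of few UMIs compared. The other causes were not tested. Leaving out 1 cell, cluster 7 alone and the MYOC-led cluster were chosen after seeing the data. No paired analysis was possible because each condition has 1 library, and no library can be left out for the same reason. In a class with 0 UMIs, a level under that of 3 UMIs was not detectable at this depth, and a ratio over a class with 1 UMI carries a wide interval.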
